A study of Mus musculus with 9 samples.

Results

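The UDP-glucuronosyltransferases described here are 10 genes chosen by name, 8 of the Ugt2 family and 2 of the Ugt3 family, of 18193 genes that could be named on the arrays. They were read by 12 of 45101 probe sets, and 2 of the genes, Ugt2b34 and Ugt3a1, had more than 1 probe set. RNA of liver was measured in 5 samples of BKS mice (C57BL/KSlepr+/+, with the intact leptin receptor gene) and 4 of db/db mice (BKS.Cg-Leprdb, with the mutated gene), each sample on its own array. All mice were males of 14 weeks on chow, and were littermates. By the design text, db/db mice of this age had diabetes, obesity and nonalcoholic fatty liver disease. The leptin receptor gene is mutated in every cell of a db/db mouse, so a difference in liver is not tied to the receptor in liver. Whether every sample is another mouse is not in the labels, and all p-values here reflect sample-to-sample spread only.

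UDP-glucuronosyltransferases sit in the membrane of the endoplasmic reticulum of liver cells and join a sugar from a nucleotide donor to small fat-soluble molecules, which can then leave in bile or urine. Ugt2 enzymes use UDP-glucuronic acid and act on steroids, bile acids and many drugs. The Ugt3 enzymes differ in their sugar: human UGT3A1 uses UDP-N-acetylglucosamine, and human UGT3A2 uses UDP-glucose and UDP-xylose. In mouse liver Ugt2b1 and Ugt2b38 are known as genes with more RNA in males than in females.

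The 8 Ugt2 genes lie next to each other on chromosome 5, with no other protein-coding gene between them, in the order Ugt2b34, Ugt2b1, Ugt2b35, Ugt2b36, Ugt2b5, Ugt2b37, Ugt2a3 and Ugt2b38 in the RefSeq annotation of GRCm38.p6. Ugt3a1 and Ugt3a2 are neighbours on chromosome 15. Promoter windows of 300 bases (for the Ugt2 genes 250 before and 50 after the start) were on hand for 9 of the 10 genes, all but Ugt3a2. The windows of Ugt2b37 and Ugt2b38 were 86.9% identical over an alignment of 314 positions, those of Ugt2b5 and Ugt2b38 84.2% and those of Ugt2b5 and Ugt2b37 76.2%. The other Ugt2 windows were 63.9% (Ugt2b36) down to 47.2% (Ugt2a3) identical to that of Ugt2b38. The 150 bases before the start are shown, 5′ to 3′ on the strand of the gene (RefSeq, GRCm38.p6), for these 3 close relatives and for Ugt2b36, because the 4 genes share a stretch of 22 bases here, and 2 of them fell in db/db liver while the other 2 did not pass the test. The capitals mark that stretch.
Ugt2b38 (chr5:87424204-87424353, minus strand): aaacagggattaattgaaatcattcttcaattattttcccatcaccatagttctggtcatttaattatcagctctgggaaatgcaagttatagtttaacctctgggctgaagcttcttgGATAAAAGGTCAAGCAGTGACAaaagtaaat
Ugt2b37 (chr5:87254789-87254938, minus strand): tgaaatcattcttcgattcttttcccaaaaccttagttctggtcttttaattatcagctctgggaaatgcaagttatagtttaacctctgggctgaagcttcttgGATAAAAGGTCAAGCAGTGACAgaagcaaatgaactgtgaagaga
Ugt2b5 (chr5:87140341-87140490, minus strand): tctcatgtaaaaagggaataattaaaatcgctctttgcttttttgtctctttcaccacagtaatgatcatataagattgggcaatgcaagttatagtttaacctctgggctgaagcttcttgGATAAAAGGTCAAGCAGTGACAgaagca
Ugt2b36 (chr5:87092556-87092705, minus strand): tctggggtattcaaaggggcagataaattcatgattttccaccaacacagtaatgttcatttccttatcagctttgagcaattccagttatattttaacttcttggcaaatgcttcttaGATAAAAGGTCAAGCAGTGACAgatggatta

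The stretch in capitals was found in the windows of these 4 genes and in no other of 32851 promoter windows, searched on both strands. It holds AGGTCA, the core motif that many nuclear receptors bind. There AGGTCA begins 22 (Ugt2b5), 25 (Ugt2b36 and Ugt2b38) and 39 (Ugt2b37) bases before the start. AGGTCA was in 5 of the 9 windows of the listed genes (also in Ugt2b35, starting 215 bases before its start) and in 16.3% of all windows. Of these 5 matches, 4 lie in the shared stretch and are not independent of one another. Ugt2b38, Ugt2b37 and Ugt2b5 shared a longer run of 62 bases that includes it. Of the other motifs searched on both strands, TTCNNNGAA (the STAT site) was in none of the 9 windows (8.3% of all), CAAAGTCCA (an HNF4 site) in none (0.475% of all), GTTAAT (part of the HNF1 site) in Ugt2a3 and Ugt3a1 (7.1% of all) and TATAAA (the TATA box) in Ugt3a1 (13.6% of all). The TATAAA of Ugt3a1 begins 1 base before its start. All of these are matches of letters, and binding was not measured.

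Signals are the deposited intensities, on a linear scale. Levels and differences are on the scale log2(signal + 16) after quantile normalization, and a difference is db/db minus BKS. "Rose" and "fell" are used for genes with an adjusted p under 0.05 (limma with Benjamini-Hochberg adjustment over all 18193 genes). Brightness of different probe sets does not rank the genes by RNA level, since each probe set binds differently. The probe sequences were not on hand, so how far a probe set also reads RNA of its close relatives was not tested. This touches the whole Ugt2b group and the Ugt3 pair.

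Median signals of the arrays were 67.4 to 110.8, and pairs of arrays correlated at 0.919 to 0.967 over genes. The control probe sets for 18S ribosomal RNA were high (941 to 6922, geometric mean of the 3) on 4 arrays (replicates 4 and 5 of BKS, replicates 3 and 4 of db/db) and low (12.5 to 22.8) on the other 5. The labels give no batch. Hepatocyte markers had summed log2 levels of 18.20 to 18.25 in BKS and 18.15 to 18.28 in db/db, and none of the 8 passed the test. Among markers of other cells none passed in 6 Kupffer cell and macrophage, 6 endothelial, 7 stellate cell, 4 bile duct, 5 lymphocyte, 4 neutrophil and 4 kidney genes. At an unadjusted p under 0.05 in limma there were 2 hepatocyte, 3 Kupffer cell, 1 endothelial, 2 stellate cell and 2 bile duct genes and 0 in the other 3 lists, against 3208 of all 18193 genes (17.6%). The summed level of the Kupffer cell list was 12.37 to 13.79 in BKS and 11.58 to 12.83 in db/db, and that of the bile duct list 9.19 to 9.51 and 8.43 to 9.32. Their part in the results was not tested. Of 4 intestinal genes Fabp2, which liver also expresses, rose. In such bulk samples, fewer cells of a type and less RNA per cell cannot be told apart.

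In db/db liver 4 of the 10 genes fell (Ugt2b38, Ugt2b37, Ugt2b35 and Ugt2b1), 1 rose (Ugt3a1), and 5 did not pass. Over all genes 5.49% were called, 2.60% as lower and 2.89% as higher, and over the genes above the median level, where all 10 of these lie, 10.1% (4.84% as lower). The median difference of the 10 genes was -0.28, against -0.00217 for all genes, and 6 of the 10 were below 0. The groups did not overlap for 2 of the 10 genes, Ugt2b38 and Ugt2b35, against 9.15% of all genes.

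**Figure D1:**
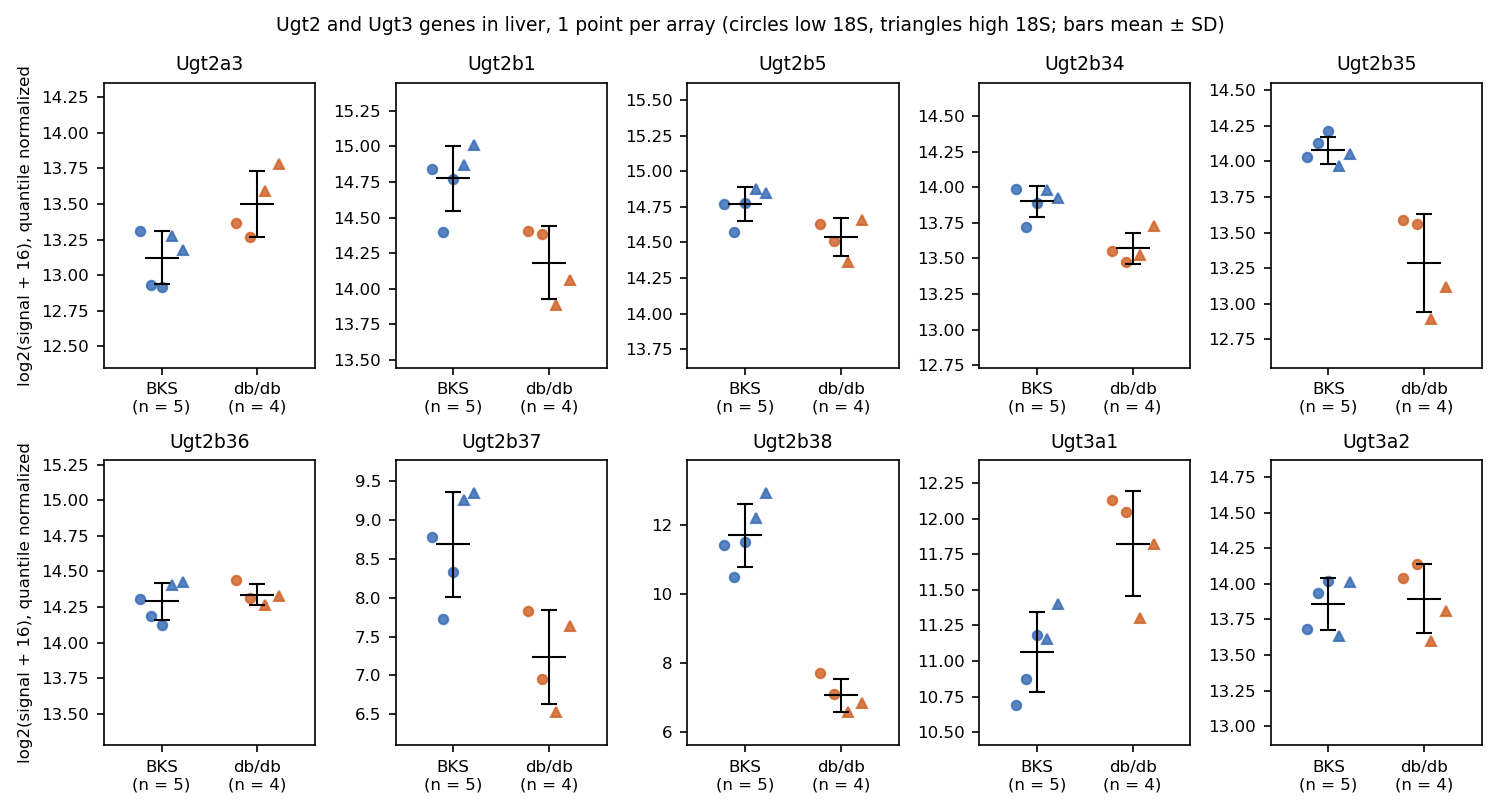
Level of each gene on each array, as log2(signal + 16) after quantile normalization (vertical axis, its range set per gene), for 5 BKS and 4 db/db arrays. Circles are arrays with low and triangles arrays with high 18S signal, and the bars give the mean ± SD. All 4 db/db arrays lie below all 5 BKS arrays for Ugt2b38 and Ugt2b35.

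Ugt2b38 was the gene with the largest difference among the 10. Its signal was 2605, 1468, 2845, 4899 and 8130 in BKS 1 to 5 and 198.1, 135.4, 81.1 and 77.2 in db/db 1 to 4. Every db/db array was thus far below every BKS array, and those of db/db 3 and db/db 4 came near the array medians. Without detection calls it is not known whether these exceed background. The level went from 11.70 ± 0.91 in BKS (SD, n = 5) to 7.06 ± 0.49 in db/db (SD, n = 4), a difference of -4.64 (SE 0.39, 95% interval -5.49 to -3.79, adjusted p = 1.40e-05). That is a signal 24.9-fold lower on this scale. With 1 or 64 added in place of 16 the difference was -4.81 or -4.20. Within the arrays of low 18S signal the difference was -3.72 and within those of high 18S signal -5.84. BKS 4 and BKS 5 had the highest signals of their group and db/db 3 and db/db 4 the lowest of theirs. The interaction of genotype and 18S set was -2.12 (SE 0.48) and did not pass (limma, adjusted p = 0.361). Leaving out each array in turn kept the call 9 of 9 times (-4.96 to -4.32), and so did all 16 other alternatives.

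Ugt2b37, whose promoter window is the closest to that of Ugt2b38, also fell, from a lower signal. It stood at 444.5, 223.7, 339.6, 554.4 and 619.0 in BKS 1 to 5 and at 217.5, 120.2, 78.3 and 152.3 in db/db 1 to 4. In these deposited signals the groups are apart by a narrow margin, between BKS 2 and db/db 1, while after normalization they overlap by those 2 arrays. The level was 8.69 ± 0.68 in BKS (SD, n = 5) and 7.24 ± 0.61 in db/db (SD, n = 4), with a difference of -1.45 (SE 0.37, adjusted p = 0.0388), a signal 2.73-fold lower. This call is weak. Leaving out 1 array ended it 7 of 9 times, in every case but BKS 2 and db/db 1 (adjusted p up to 0.119), and the difference was -0.88 within the low and -2.22 within the high 18S arrays. It was also lost with the probe set of largest variance for each gene (adjusted p = 0.0509), with array weights (adjusted p = 0.0675), without an intensity trend (adjusted p = 0.0971) and in the low 18S arrays alone (adjusted p = 0.347).

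Ugt2b5, the third gene of this close group, had a bright signal on all arrays: 30131, 19780, 23678, 41344 and 33988 in BKS 1 to 5 and 21223, 19123, 24662 and 27952 in db/db 1 to 4. The groups overlap. The level was 14.77 ± 0.12 in BKS (SD, n = 5) and 14.54 ± 0.13 in db/db (SD, n = 4), and the difference of -0.23 did not pass (SE 0.10, 95% interval -0.45 to -0.000674, adjusted p = 0.281). The difference between these genes was not tested. Ugt2b36, which shares the 22 bases, stood at 14.29 ± 0.13 in BKS (SD, n = 5) and 14.34 ± 0.07 in db/db (SD, n = 4). Its difference of 0.05 did not pass (SE 0.10, 95% interval -0.17 to 0.26, adjusted p = 0.867), with signals of 15688 to 28170 in BKS and 16981 to 22487 in db/db.

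**Figure D2:**
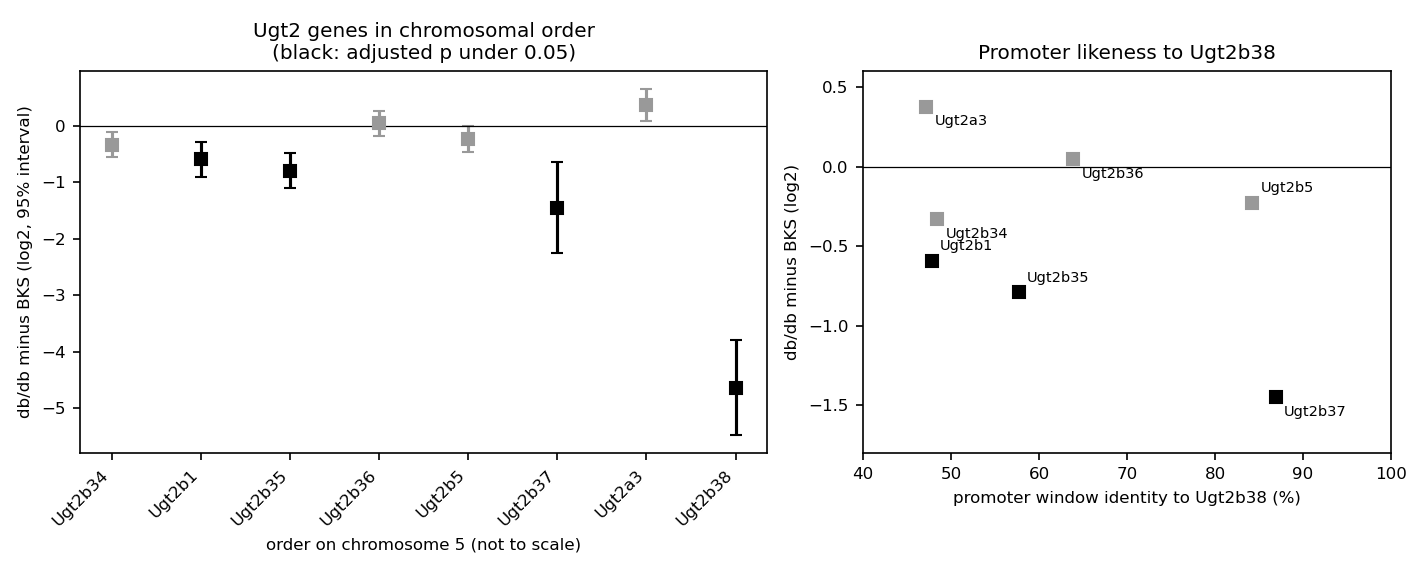
Left, the difference db/db minus BKS (log2 scale, bars 95% interval) of the 8 Ugt2 genes in their order on chromosome 5, not to scale, with genes of adjusted p under 0.05 in black. Right, the same difference against the identity of each gene's promoter window to that of Ugt2b38 (percent): Ugt2b37 (86.9% identical) lies at -1.45 and Ugt2b5 (84.2%) at -0.23, and the difference between genes was not tested.

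Ugt2b35 and Ugt2b1 are direct neighbours on the chromosome, and both fell. For Ugt2b35 the signal was 16705, 15144, 16714, 19640 and 18842 in BKS 1 to 5 and 11507, 10674, 8117 and 9524 in db/db 1 to 4. No db/db array reached the lowest BKS array. The level was 14.08 ± 0.09 in BKS (SD, n = 5) and 13.29 ± 0.34 in db/db (SD, n = 4), a difference of -0.79 (SE 0.14, adjusted p = 0.00520), or a signal 1.73-fold lower. The difference was -0.55 within the low and -1.01 within the high 18S arrays. The call survived the loss of any 1 array (adjusted p up to 0.0207) and was lost with arrays centred on the median (adjusted p = 0.128), without an intensity trend in the test (adjusted p = 0.0588) and in the low 18S arrays alone (adjusted p = 0.0698).

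For Ugt2b1 the signal was 31844, 17924, 23486, 41282 and 38926 in BKS 1 to 5 and 18583, 17831, 17227 and 18384 in db/db 1 to 4. The db/db signals are nearly equal, and only BKS 2 comes down to them. The level was 14.78 ± 0.23 in BKS (SD, n = 5) and 14.18 ± 0.25 in db/db (SD, n = 4), a difference of -0.59 (SE 0.15, adjusted p = 0.0302), or a signal 1.51-fold lower. It was -0.27 within the low and -0.96 within the high 18S arrays, and the interaction did not pass (limma, adjusted p = 0.664). Leaving out 1 array ended the call 6 of 9 times (BKS 1, 3, 4 or 5, db/db 3 or 4, adjusted p up to 0.105). It was also lost with values as deposited (adjusted p = 0.128), with median centring (adjusted p = 0.403), without an intensity trend (adjusted p = 0.150), in the low 18S arrays alone (adjusted p = 0.501) and with the replicate number as a block (adjusted p = 0.0688).

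Ugt2b34, at the end of the cluster beside Ugt2b1, was read by 2 probe sets. The brighter had signals of 16054, 11790, 13736, 19847 and 17255 in BKS 1 to 5 and 11236, 10207, 13358 and 14747 in db/db 1 to 4. The groups overlap, with db/db 4 just above BKS 2 after normalization. The difference was -0.33 (SE 0.10, 95% interval -0.55 to -0.12, adjusted p = 0.0779) and on the other probe set -0.45 (SE 0.13, adjusted p = 0.0899 in the fit over all probe sets). Neither passed, and with the 18S split as a block the brighter one did (-0.34, adjusted p = 0.0403). It also passed when only genes above the median level were tested (adjusted p = 0.0293).

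Ugt2a3, which stands between Ugt2b37 and Ugt2b38 on the chromosome, pointed the other way. Its signal was 9568, 7106, 7315, 11427 and 9924 in BKS 1 to 5 and 9938, 8884, 14150 and 15245 in db/db 1 to 4. The highest values are those of db/db 3 and db/db 4, and the groups overlap. The level was 13.12 ± 0.19 in BKS (SD, n = 5) and 13.50 ± 0.23 in db/db (SD, n = 4), and the difference of 0.38 did not pass (SE 0.13, 95% interval 0.09 to 0.66, adjusted p = 0.132). No alternative fit brought it past the threshold.

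Of the Ugt3 pair, Ugt3a1 rose and Ugt3a2 did not pass. The brighter probe set of Ugt3a1 had signals of 1605, 1896, 2319, 2235 and 2707 in BKS 1 to 5 and 4444, 4117, 2510 and 3742 in db/db 1 to 4, with db/db 3 alone inside the BKS range. Its level was 11.06 ± 0.28 in BKS (SD, n = 5) and 11.82 ± 0.37 in db/db (SD, n = 4), a difference of 0.76 (SE 0.18, adjusted p = 0.0279), or a signal 1.70-fold higher. The other probe set showed the rise more evenly: 1380, 1326, 1237, 1966 and 1960 in BKS 1 to 5 against 3940, 3762, 3179 and 3784 in db/db 1 to 4. On that probe set the groups do not overlap. The difference was 1.23 (SE 0.17, adjusted p = 0.00116 in the fit over all probe sets, in which 3.48% of probe sets were called). Whether that probe set also reads RNA of Ugt3a2 was not tested.

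The call of Ugt3a1 on its brighter probe set did not survive the loss of BKS 1, BKS 2, db/db 1, db/db 2 or db/db 4, 5 of 9 cases (adjusted p up to 0.0905). It was also lost with median centring (adjusted p = 0.0890), without an intensity trend (adjusted p = 0.122) and in the high 18S arrays alone (adjusted p = 0.562). The difference was 1.17 within the low and 0.28 within the high 18S arrays, and the interaction did not pass (limma, adjusted p = 0.654). Ugt3a2 had signals of 12579 to 18270 in BKS and 14280 to 15489 in db/db, which lie inside the BKS range. Its difference was 0.04 (SE 0.13, 95% interval -0.25 to 0.33, adjusted p = 0.921).

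**Figure D3:**
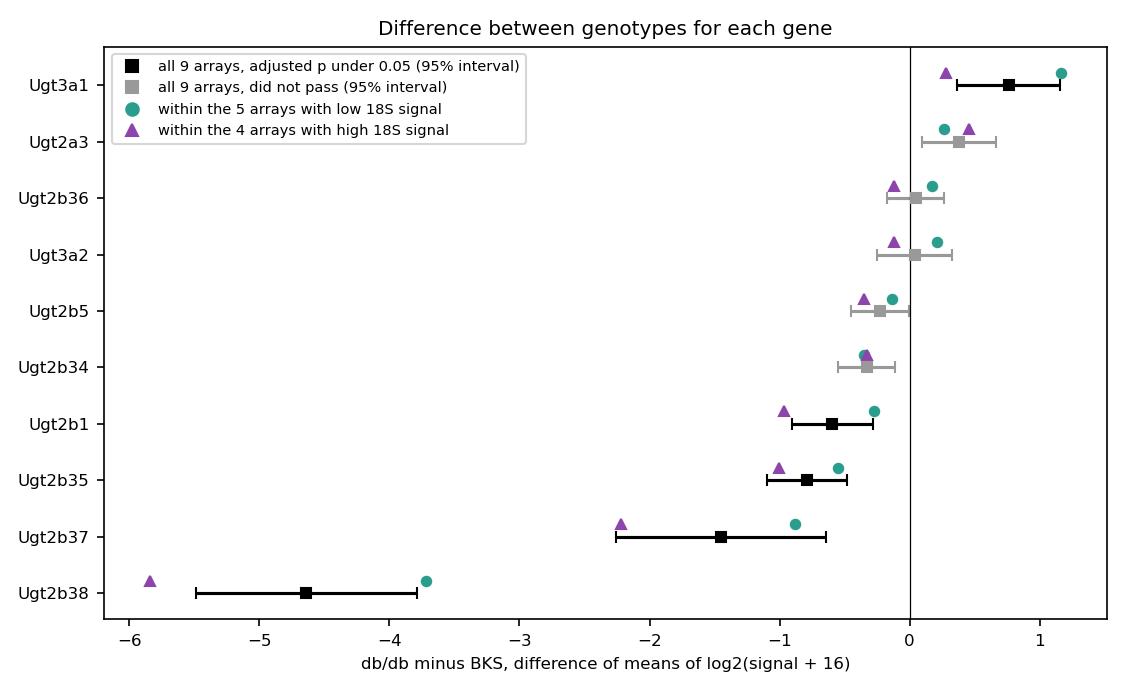
Difference db/db minus BKS of each gene on the log2(signal + 16) scale. Squares with 95% intervals come from all 9 arrays (black where the adjusted p was under 0.05), circles from the 5 arrays with low and triangles from the 4 with high 18S signal. Ugt2b38 lies at -4.64, with -3.72 and -5.84 within the sets, and both sets put each of the 5 called genes on the same side of 0.

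The interaction of genotype and 18S set passed for none of the 10 genes (limma, adjusted p 0.361 to 0.989), with unadjusted p under 0.05 for Ugt2b38, Ugt3a1, Ugt2b1 and Ugt2b35. Over all 18193 genes it passed for 6, at the adjusted threshold. The share of all genes with an unadjusted p under 0.05 in limma for this interaction was not counted. Whether the 10 genes stand out at that unadjusted cut was therefore not tested. For the 5 called genes the within-set differences have the same sign in both sets. What 18S signal stands for was not tested.

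The likeness of 2 genes was measured as the root mean square difference over the 9 arrays between their log2 levels, each centred on its own mean, so that 0 means the same profile. Among the 10 genes the most alike were Ugt2b5 and Ugt2b34 (0.0890), then Ugt2b5 and Ugt2b36 (0.162). Ugt2b1 and Ugt2b35, the neighbours that both fell, were at 0.219, while Ugt2b36 and Ugt3a2, on different chromosomes, were at 0.215. Ugt2b37 and Ugt2b38, which also both fell and have the closest promoter windows, were at 1.62. That was the smallest value of Ugt2b38 with any of the listed genes, followed by 2.02 with Ugt2b35 and reaching 2.73 with Ugt3a1. Genes that vary little come out alike on this measure. The profiles are not scaled, so genes that move together by unlike amounts come out far apart. Over all genes other than these 10, the profile nearest to Ugt2b38 was that of Serpina12, which encodes vaspin (0.412, with a median of 2.43 over all genes), followed by Cyp7b1, an oxysterol hydroxylase (0.903), and complement C6 (0.949). Their differences were -4.51, -3.26 and -3.57.

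The genes nearest to Ugt2b35 were Cadps2 (0.107, difference -0.69), the kinase gene Clk2 (0.119, difference -0.75) and Ghr, the growth hormone receptor (0.143, difference -0.66). Those nearest to Ugt2b1 were Cyp4v3, a fatty acid hydroxylase (0.142), Prdx4, a peroxiredoxin of the endoplasmic reticulum (0.143), and Magt1 (0.145). Nearest to Ugt2b37 were Sema6b (0.278), the transcription factor Bcl11a (0.281) and Apobec1, which edits apolipoprotein B RNA (0.356). Nearest to Ugt3a1 were Tmem243 (0.150), Anxa5, a phospholipid binding annexin (0.170), and Aqp11, an aquaporin (0.177). These genes were picked for likeness, so their differences are a description.

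Around the enzymes, 42 of 56 listed genes could be measured, of which 6 rose and 4 fell, with a median difference of 0.01. Some of the lists hold genes outside glucuronidation itself, such as those that supply UDP-N-acetylglucosamine. Over all genes 2.89% rose and 2.60% fell, and 10.1% of those above the median level were called, which is the background for each of the lists. In the supply of UDP-glucuronate 1 of 5 measured genes rose and none fell. Ugp2, which makes UDP-glucose, rose from 13.68 ± 0.16 in BKS to 14.39 ± 0.07 in db/db (SD, n = 5 and 4). This is a difference of 0.71 (SE 0.11, adjusted p = 0.00130). Its 5 probe sets ranged from 0.55 to 1.13, and 3 of them were called in the fit over all probe sets. Ugdh, which oxidises UDP-glucose to UDP-glucuronate, was at 0.01 (SE 0.12, adjusted p = 0.982), and Slc35d1, which carries UDP-glucuronate into the endoplasmic reticulum, at 0.08 (SE 0.11, adjusted p = 0.806).

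No gene passed among 7 that use UDP-glucuronate or glucuronate in other ways, with no unadjusted p under 0.05 in limma, and the smallest p were those of Miox (-0.76), Xylb (0.24) and Dcxr (0.15). None passed among 6 that supply UDP-N-acetylglucosamine, again with no unadjusted p under 0.05 in limma, with Uap1l1 at -0.49, Uap1 at 0.65 and Gfpt1 at -0.51. Of the 2 genes that cleave glucuronides neither passed in limma (1 at an unadjusted p under 0.05): Gusb, the lysosomal beta-glucuronidase, was at 0.54 (SE 0.16, adjusted p = 0.0688) with groups that did not overlap, and Abhd10 at -0.42 (SE 0.27, adjusted p = 0.464). Of 12 other UDP-glycosyltransferases only Ugt8a had a probe set of its own, at a difference of 0.10 (adjusted p = 0.945). The Ugt1a genes share their last exons, and 3 probe sets are annotated to several of them at once, so none could be named here.

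Of 6 carriers of glucuronides 2 rose and 1 fell, against 5.49% called over all genes. Abcc3, an exporter to the blood side, rose by 1.32 (SE 0.24, adjusted p = 0.00546), and Abcc4, also on the blood side, by 3.94 (SE 0.45, adjusted p = 1.81e-04). The size of the Abcc4 difference depends on the value added to the signal, since its BKS level of 5.13 ± 0.68 (SD, n = 5) was far below the median level of 7.43: it was 4.87 with 1 and 2.80 with 64 added in place of 16, called both times. Slco1a1, an uptake carrier, was at -6.04 (SE 0.82, adjusted p = 7.01e-04). Its difference was -3.94 within the low and -8.11 within the high 18S arrays, and -6.47 and -5.37 over all arrays with 1 and 64 added. The difference of Abcc2, the exporter to bile, was 0.09 (SE 0.14, adjusted p = 0.798).

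Among 15 measured regulators known to act on Ugt genes 3 rose and 3 fell. Over all genes 5.49% were called, and 10.1% of those above the median level, where all 15 lie. An unadjusted p under 0.05 in limma was found for 11, against 17.6% of all genes, dim ones included. The list was chosen with earlier results of these data known, so these counts are a description. The xenobiotic receptors Nr1i3 (CAR, 1.00, SE 0.22, adjusted p = 0.0155) and Nr1i2 (PXR, 0.70, SE 0.16, adjusted p = 0.0234) rose, as did Nr1h4, the bile acid receptor FXR (0.70, SE 0.15, adjusted p = 0.0169). Of the 9 arrays, leaving out db/db 1 or 2 ended the call of Nr1i3, db/db 2, 3 or 4 that of Nr1i2 and db/db 1 or 3 that of Nr1h4 (adjusted p up to 0.0538, 0.0879 and 0.0582). The pioneer factor Foxa1 fell from 11.44 ± 0.41 in BKS to 9.33 ± 0.52 in db/db (SD, n = 5 and 4), a difference of -2.10 (SE 0.25, adjusted p = 2.45e-04). Foxa3 fell by 0.79 (SE 0.16, adjusted p = 0.0120), and Bcl6, a repressor that helps keep the male liver pattern, fell by 1.22 (SE 0.24, adjusted p = 0.00803). The other probe set of Bcl6 was at -0.29 and that of Nr1i2 at 0.57, and neither was called. RNA levels of these regulators do not show their activity.

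**Figure D4:**
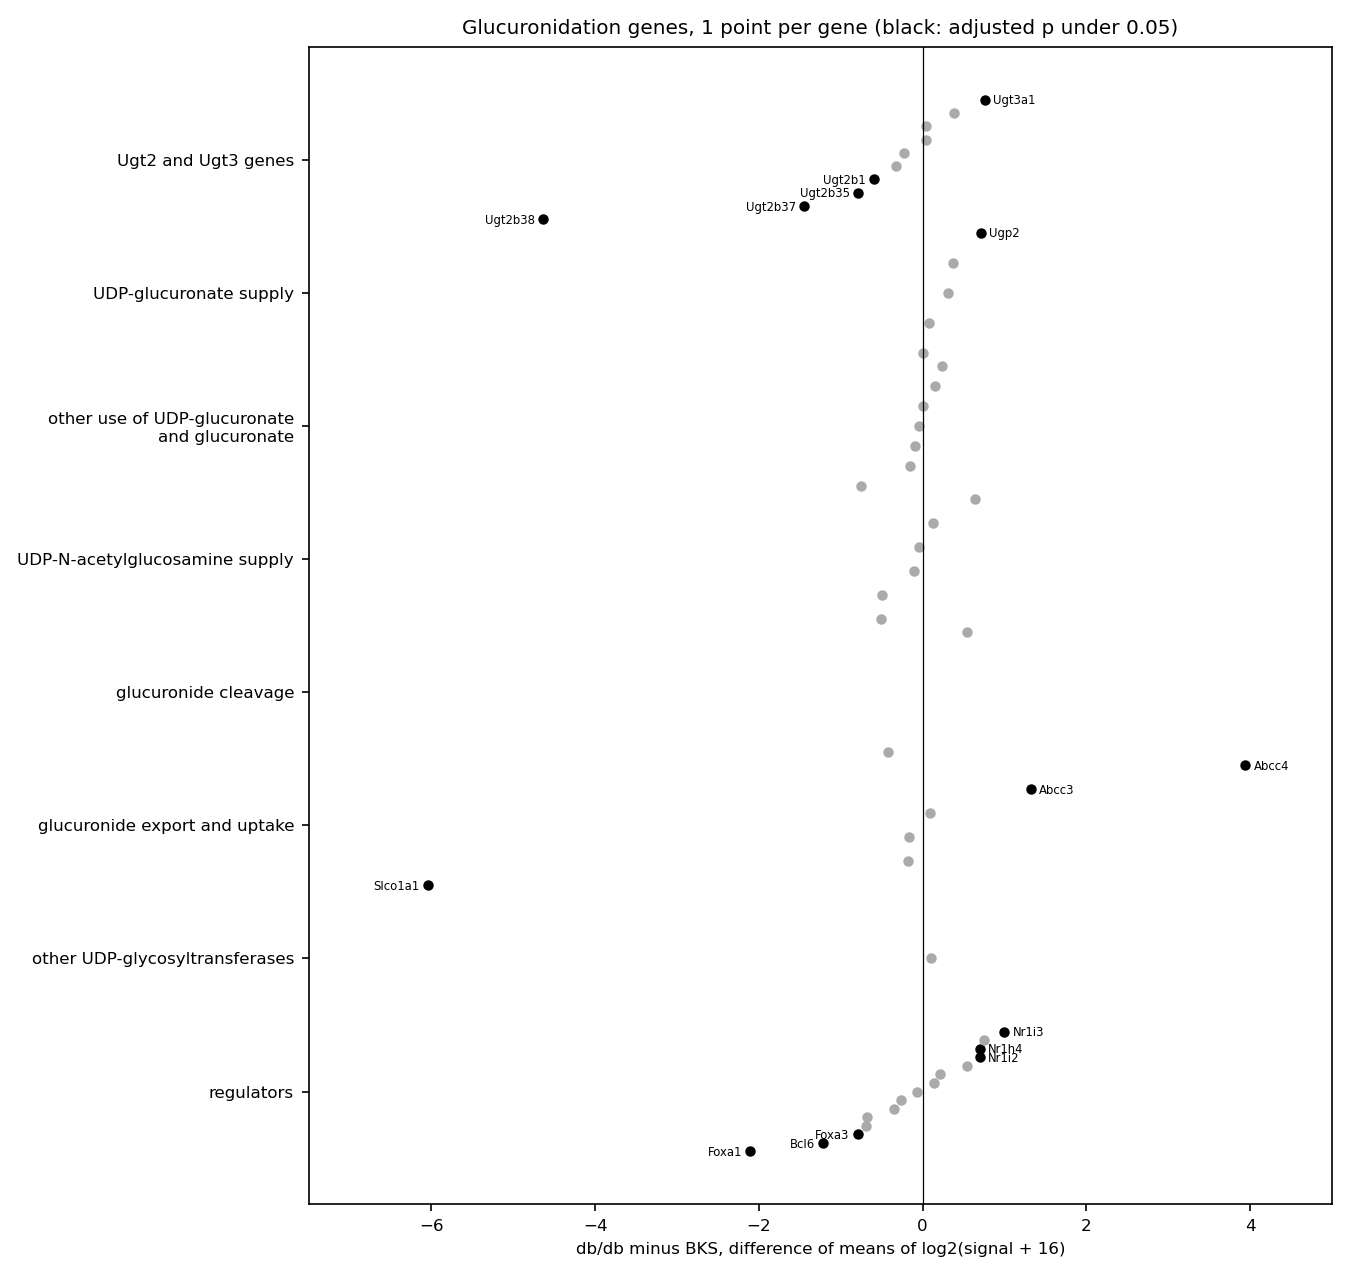
Difference db/db minus BKS on the log2(signal + 16) scale for the 10 genes and for each list of genes around glucuronidation. There is 1 point per gene, spread vertically within a list for legibility only. Black points with names have an adjusted p under 0.05. Ugt2b38 at -4.64 and the uptake carrier Slco1a1 at -6.04 lie far to the left, and the exporter Abcc4 at 3.94 far to the right.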

How the data were processed

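Per the labels' protocols, liver RNA was turned into biotin-labelled cRNA for Affymetrix arrays, 1 sample on each. The deposited table gives 1 intensity per probe set for 9 arrays, on a linear scale. Its mean after trimming 2% at each end was 500.0 on every array, so the authors had scaled each array. How they did so is not given in the sources used here, and no detection calls were on hand.

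Intensities were transformed as log2(value + 16) and brought to the same quantiles by limma 3.58.1 (R 4.3.3). Probe sets were named through GEO's platform annotation: 34945 had 1 symbol, 932 several, 9160 were not listed, and 64 were controls. Each gene was represented by its brightest probe set. All 18193 genes were tested (lmFit, eBayes with an intensity trend, two-sided, Benjamini-Hochberg adjustment, threshold 0.05) with no filter on dim genes. No arrays were identical. Promoters were aligned with Biopython 1.88.

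All 10 genes were named by rule, with the genes past the threshold in each list (or else up to 3 with the smallest p) and the 3 nearest profiles of each called gene. Members, lists and tests were chosen with earlier results of these data known. Ugdh, Slc35d1, Abcc2 and the intestinal marker Fabp2 are named beyond that rule and were chosen after their values were seen.

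The test was tried on simulated data, with changes set in genes above the median level. It recovered 11.7% of 1.5-fold, 50.8% of 2-fold and 92.6% of 4-fold changes, so a gene that did not pass may still differ. Each of 20 rounds changed 200 genes, and all rounds together gave 2107 calls, against 999 called genes in the data. With fewer changed genes the adjustment is stricter, so these shares may be too low for the data. Alternatives were other scalings, pseudocounts, probe set choices, variance models, blocks and array subsets. The interaction with the 18S set, the within-set differences and the other pseudocounts for genes outside the 10 were added after seeing the data. The number of arrays limits the precision.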

Additional observations from a re-analysis of the deposited data

How the results depend on the processing

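With 1 array left out, genes called higher ranged from 309 to 519 and lower from 283 to 434 over the whole table, Ugt2 and Ugt3 genes called lower from 2 to 4 and higher from 0 to 1, and list genes from 4 to 7 higher and 4 to 5 lower. The lowest whole-table counts came without db/db 3. Ugt2b38 was called in all 25 alternative fits. Centring on the median gave 323 genes higher and 212 lower, with 2 of the 10 genes lower and 0 higher. Without an intensity trend there were 254 higher and 212 lower, with 1 of the 10 lower and 0 higher, and 2 list genes lower. The low 18S arrays alone gave 216 higher and 220 lower, with 1 of the 10 lower and list counts of 2 higher and 2 lower, and the high 18S arrays alone 241 higher and 224 lower, with 0 of the 10 higher. With the 18S block there were 751 genes lower and 10 list genes higher, with averaged probe sets 273 lower and with the probe set of largest variance 260 lower.

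Signs turned only for genes near 0: Ugt2b36 stood at -0.0413 with values as deposited and -0.13 in the high 18S arrays, and Ugt3a2 at -0.12 in the latter and at -0.00283, -0.0152, -0.00761 and -0.0403 without BKS 1, BKS 4, db/db 1 and db/db 2. With 1 array left out Ugt3a2 ranged from -0.0403 to 0.141, and in the low 18S arrays alone it was 0.20. The cause was not tested. Arrays of equal replicate number had correlations of deviations from the group means of -0.07 to 0.17 over 4 numbers. Arrays of unequal number were not compared, so these values cannot tell whether the samples are paired. With the replicate block Ugt2b1 lost its call (-0.54, adjusted p = 0.0688), so 3 of the 10 genes were lower and 1 higher, with 596 genes higher and 550 lower in all. Without detection calls, values near the array median have no known distance from background.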
